A study of Mus musculus with 4 samples.

Results

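The first steps of signalling from the T cell receptor (TCR) were read here through 8 genes: Lck, Fyn, Zap70, Lat, Lcp2, Plcg1, Prkcq and Malt1. They were chosen by name for their known function, with earlier results of these data known, and matched by Ensembl identifier to GENCODE symbols. All 8 were found among the 50600 genes in each file, all 8 reached 1 TPM in every library, and 12114 genes did so in all. TPM, a length-corrected unit of transcript abundance, is a gene's read count divided by its exon length and scaled to a fixed library total, so it can be compared between genes. The data are RNA sequencing libraries of mouse regulatory T cells, strain C57BL/6NJ, labelled as primary cells. They form a single group with biological replicate numbers 1 to 4, and no control group, mutant allele or treatment is named. Regulatory T cells are CD4+ lymphocytes that hold back immune responses. The labels link a protocol for CD4+ T cell differentiation, give a single donor record for all 4 libraries and record neither age nor sex, while the sample names inside the files add that the cells were activated, sorted and taken at 72 h. The title speaks of total RNA, while the linked library protocol is one for poly(A)+ RNA. Nothing in the labels says that the libraries came from separate animals, so p-values speak for the spread among these 4 samples alone, and part of it may be technical.

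When a TCR binds its ligand, the Src family kinases Lck and Fyn phosphorylate the CD3 and zeta chains of the receptor, and the kinase Zap70 docks there and is activated. Zap70 phosphorylates the membrane scaffold Lat and the adaptor Lcp2, better known as SLP-76, which together recruit the phospholipase Plcg1. Plcg1 produces diacylglycerol and inositol trisphosphate, the former of which activates the kinase Prkcq, also called PKC-theta, and Prkcq in turn drives assembly of a complex that holds Malt1 and leads to NF-kappaB activation. Regulatory T cells need signals from the TCR for their development and for suppressive function. The need for each of the 8 genes was not tested here. RNA levels do not report phosphorylation or protein.

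The libraries held 32648138 to 94983494 counts, and each of the 8 genes had between 2783 and 67462 counts per library. Markers of the labelled cell type were present: 7 of 7 regulatory T cell genes, with Foxp3 at 433 to 495 TPM, and 10 of 10 pan T cell genes were at 1 TPM or more in every library. Replicate 1 stood apart in non-coding RNA, with Gm42418 at 11891 TPM against 1555 to 4335 TPM in the others. Replicates 1 and 2 held Xist at 312 and 331 TPM and replicates 3 and 4 at 0.539 and 2.38 TPM, while Y-linked Ddx3y was at 0.0664, 0.0264, 26.0 and 31.2 TPM. Read as markers of sex, these genes make replicates 1 and 2 female and replicates 3 and 4 male. A single animal thus did not give all 4 libraries. Whether libraries of 1 sex shared an animal is not known. The labels, with their single donor record, do not give this split, and the test of variation between libraries below does not model it.

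Promoter windows were found for 7 of the 8 genes, and 4 windows are shown: both of Lck, the most abundant gene, that of Lcp2, which holds no CG dinucleotide, and that of Prkcq, which holds the most. The windows are the 250 bases upstream of a RefSeq transcript start in build GRCm38.p6, written in the direction of the gene, and capitals mark CG dinucleotides. Lck, the most abundant of the 8, has 2 annotated starts on chromosome 4, an upstream one (window chr4:129573642-129573891, minus strand) and a downstream one (chr4:129558373-129558622, minus strand). Gene counts add reads from both. The Lcp2 window lies at chr11:34046678-34046927 on the plus strand and that of Prkcq, the least abundant of the 8, at chr2:11172132-11172381 on the plus strand.
Lck, upstream start: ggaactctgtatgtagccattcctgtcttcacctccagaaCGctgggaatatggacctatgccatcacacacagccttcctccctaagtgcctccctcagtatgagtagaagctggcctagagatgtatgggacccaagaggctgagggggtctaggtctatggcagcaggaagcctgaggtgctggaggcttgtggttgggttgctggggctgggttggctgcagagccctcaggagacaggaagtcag
Lck, downstream start: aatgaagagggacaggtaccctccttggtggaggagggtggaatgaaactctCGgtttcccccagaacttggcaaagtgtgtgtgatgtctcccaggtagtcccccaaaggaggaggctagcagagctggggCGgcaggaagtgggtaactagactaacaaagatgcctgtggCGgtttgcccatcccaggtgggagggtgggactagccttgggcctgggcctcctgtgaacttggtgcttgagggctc
Lcp2: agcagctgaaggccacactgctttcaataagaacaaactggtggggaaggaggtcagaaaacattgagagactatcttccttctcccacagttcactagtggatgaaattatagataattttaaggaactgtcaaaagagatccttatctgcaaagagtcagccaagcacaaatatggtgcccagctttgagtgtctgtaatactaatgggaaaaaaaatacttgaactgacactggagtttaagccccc
Prkcq: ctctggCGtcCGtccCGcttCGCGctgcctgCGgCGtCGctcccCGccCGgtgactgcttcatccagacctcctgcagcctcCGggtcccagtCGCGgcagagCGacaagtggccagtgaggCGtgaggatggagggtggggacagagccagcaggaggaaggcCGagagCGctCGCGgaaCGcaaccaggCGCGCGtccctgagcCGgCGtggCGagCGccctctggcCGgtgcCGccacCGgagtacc

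Outside chromosome 18, there were 10 windows for 7 of the 8 genes. In Lck, Lat, Zap70 and Lcp2, the number of CG dinucleotides was 0 to 0.338 of that expected from base composition (0.0514 and 0.152 in the 2 Lck windows, 0.230 in Lat, 0.116 to 0.338 in 3 Zap70 windows and 0 in Lcp2). In Plcg1, Fyn and Prkcq it was 0.668, 0.794 and 0.916. Over 32841 windows of the same length, also outside chromosome 18, the median was 0.374 and 34.0% reached 0.6. The ETS family motif GGAAGT, searched on both strands, occurred once in each Lck window and once in 1 Zap70 window, and 19.7% of all windows hold it. The RUNX motif TGTGGT, also searched on both strands, occurred in the upstream Lck window and in 1 Zap70 window, against 14.0% of all windows. The same Zap70 window held the ETS and RUNX matches. The first bases after its start were found in no GENCODE transcript of Zap70, unlike those of the other windows. The E-box motif CAGGTG, also on both strands, occurred in the downstream Lck window, in 2 Zap70 windows and in Plcg1, against 17.2% of all windows. No match of one motif overlapped a match of another in these windows, and Lat, Lcp2, Fyn and Prkcq held none of the 3. A match is a stretch of letters and not a binding site shown by these data. The 4 genes with few CG dinucleotides were also the 4 most abundant of the 8 in TPM, which is a description of these genes and was not tested. Without length correction, Plcg1 stood above Lcp2 and Zap70, and no window of Malt1 was read.

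The 8 genes spanned a 20.7-fold range of level. Lck was highest at 778 ± 15.4 TPM (SD, n = 4 for all levels given with ±), followed by Lat, Lcp2, Zap70, Plcg1, Fyn, Malt1 and Prkcq, the last at 37.5 ± 4.28 TPM. Their median was 220.3 TPM, against 26.2 TPM for all genes expressed in every library. Of those 12114 genes, 98.8% lay below Lck, 98.0% below Lat, 88.3% below Malt1 and 60.1% below Prkcq. Lck alone held 33.5 ± 0.437% of the summed TPM of the 8 genes and Lat 22.8 ± 1.10%.

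**Figure D1:**
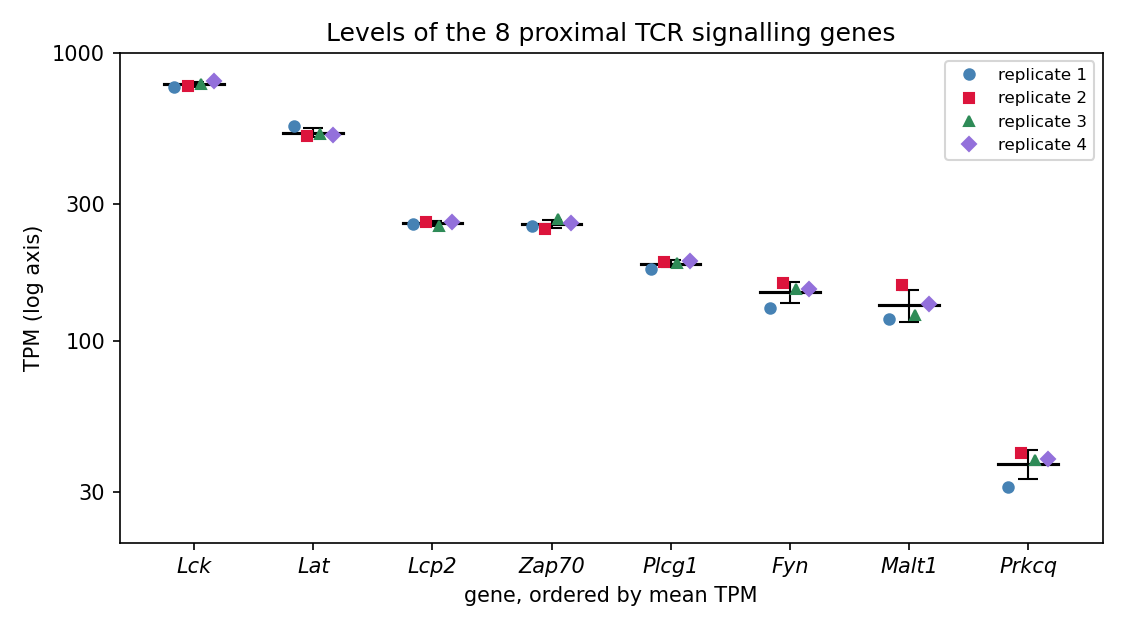
TPM (log axis) of each of the 8 genes in each of the 4 libraries, with points for libraries, a bar for the mean and error bars of 1 SD. Lck lies between 762 and 798 TPM in the 4 libraries, above the other 7 genes in each, and Prkcq lies between 31.3 and 41.0 TPM, below them.

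The order of levels was nearly fixed from library to library. Of the 28 pairs of genes, 27 had the same order in every library. The exception was Lcp2 and Zap70, whose log2 TPM differed by 0.01 ± 0.07, with Lcp2 above in 3 of 4 libraries, so that these neighbours did not differ beyond their spread. Every other neighbouring pair kept 1 order in 4 of 4 libraries, with a mean difference above its SD. Fyn lay above Malt1 by 0.16 ± 0.11 on the log2 scale, by as little as 0.02 in replicate 2, and Malt1 above Prkcq by 1.83 ± 0.13. Levels between genes depend on the length used. With the longest annotated transcript of each gene, these differences were 0.78 and 0.66. Without length, in CPM (counts scaled to a fixed library total), Plcg1, the gene with the longest exons (7857 bp), stood above Zap70 and Lcp2, with Zap70 minus Plcg1 at -0.94, and Malt1 stood above Fyn, with Fyn minus Malt1 at -0.06 (log2 CPM).

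Lck is the kinase that is held at the coreceptors Cd4 and Cd8 and starts the phosphorylation of the receptor. Lck (ENSMUSG00000000409.14, chromosome 4, 129548344 to 129573641 in mm10, minus strand) measured 762, 770.2, 780.4 and 798 TPM in replicates 1 to 4. The libraries lay within 1.05-fold of each other. Cd4 itself was at 557 ± 21.8 TPM, and the CD3 chains and zeta, the substrates of Lck, ranged from 94.6 ± 3.47 TPM for Cd247 to 331 ± 38.4 TPM for Cd3d. Of the 10 receptor and coreceptor genes, 9 were expressed in every library and Cd8a was not, at 0 to 0.671 TPM. The highest were the receptor constant regions Trac at 1138 ± 116 TPM, Trbc2 at 666 ± 39.5 TPM and Trbc1 at 566 ± 35.8 TPM, of which the last are near-identical copies whose separate levels are uncertain.

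Fyn, the second Src family kinase of T cells (ENSMUSG00000019843.14, chromosome 10, 39368855 to 39565381, plus strand), measured 131, 159.5, 151 and 151 TPM. Replicate 1 was the lowest and the other libraries were close together. Lck exceeded Fyn by 2.39 ± 0.11 on the log2(TPM + 1) scale, above 0 in 4 of 4 libraries. The planned gene pairs, this pair included, were compared within libraries by flipping signs in an exact permutation test, two-sided. Their p-values were adjusted over 9 pairs by Benjamini-Hochberg. Pairs chosen after their values were seen are marked below and were not tested. In that exact test each of the 8 pairs given here had p = 0.125 before and after adjustment, the smallest value that 4 libraries allow, so none could pass 0.05 and the size and spread of each difference carry the comparison. Such differences also include unequal recovery of different transcripts.

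Of the summed TPM of the Src family kinase genes (976 ± 18.1), Lck held 79.7 ± 0.996% and Fyn 15.2 ± 1.02%. The third was Src itself, the broadly expressed founding member of the family, at 49.7, 45.8, 42.1 and 34.9 TPM, or 4.43 ± 0.718%. Yes1, Fgr and Lyn were at 2.77 ± 0.523, 2.20 ± 0.349 and 2.01 ± 0.357 TPM. Blk, a B cell kinase, had no count in any library, and 3 counts correspond to 0.0316 to 0.0919 CPM there, for counting error only. Fyn exceeded Lyn, the main Src kinase of B cells and many myeloid cells, by 5.64 ± 0.19 on the log2(TPM + 1) scale (4 of 4 libraries).

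The activity of Lck is set by phosphatases and a kinase that act on its tail and activation loop. Of 9 genes that regulate Src kinases, anchors and adaptors among them, the 3 highest in TPM were Ptpn6, the phosphatase SHP-1, at 455 ± 16.2 TPM, Csk, the kinase that shuts Src kinases off, at 394 ± 8.29 TPM, and Ptprc, the CD45 phosphatase that opens them, at 112 ± 12.1 TPM. The order of the latter pair turned with length: Ptprc minus Csk was -1.81 (log2) in TPM, 0.47 in CPM and -0.59 with the longest transcript, a pair chosen after its values were seen. Csk minus Lck was -0.98 ± 0.04 (log2) in TPM, below 0 in every library, and -0.63 in CPM. That pair was also chosen after its values were seen. Ptpn22, a phosphatase that works with Csk, was at 58.4 ± 7.04 TPM and Pag1, a membrane anchor of Csk, at 12.0 ± 0.374 TPM. Lime1, another membrane adaptor, was at 0.950 to 3.39 TPM and under 1 TPM in replicate 4.

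Zap70 (ENSMUSG00000026117.10, chromosome 1, 36761798 to 36782818, plus strand) measured 252, 245, 265 and 257 TPM, with no library standing apart. Its only close relative, Syk, which serves the B cell receptor and Fc receptors, was at 0.406, 0.161, 0.166 and 0.191 TPM, or 18 to 55 counts per library. The ratio of the means was 1102-fold, and the difference was 7.70 ± 0.15 on the log2(TPM + 1) scale (4 of 4 libraries), a scale that understates the change of low genes. Among the Tec kinases, which act beside Lat and Lcp2 to activate Plcg1, Tec stood at 31.8 ± 4.63 TPM and Txk at 6.45 ± 1.08 TPM. Btk, the B cell member, was at 0.724 to 1.09 TPM and Bmx had no count.

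Lat (ENSMUSG00000030742.7, chromosome 7, 126363824 to 126369570, minus strand) measured 558, 516, 525 and 518 TPM. Replicate 1 was the highest, and the other 3 lay within a few percent of each other. Lcp2 (ENSMUSG00000002699.13, chromosome 11, 34046920 to 34092295, plus strand) measured 255, 259.5, 250.1 and 259.8 TPM, or 256 ± 4.53 TPM, with no library standing apart. Their relatives of other blood cells were near the lower end: Lat2, the scaffold of B cells and mast cells, at 0.870 to 2.26 TPM (33 to 175 counts), and Blnk, the SLP-65 adaptor of B cells, at 0.249 to 0.967 TPM (15 to 171 counts). Lat exceeded Lat2 by 7.68 ± 0.39 and Lcp2 exceeded Blnk by 7.36 ± 0.29 on the log2(TPM + 1) scale, each in 4 of 4 libraries. Clnk, the third adaptor of the SLP family, had 7 counts in replicate 4 and none elsewhere.

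Partners of Lat and Lcp2 were expressed broadly. Of 26 adaptor and exchange factor genes, with Lat and Lcp2 among them, 23 reached 1 TPM in every library, and Lat2, Blnk and Clnk did not. The 3 highest were Lat, Grap, a Grb2-like adaptor, at 307 ± 26.4 TPM, and Lcp2. Grap2, the Gads adaptor that bridges Lat and Lcp2, was at 151 ± 8.44 TPM and Grb2, which brings Sos to Lat, at 141 ± 10.1 TPM. Vav1, the exchange factor bound by Lcp2, was at 185 ± 4.71 TPM and held 79.8 ± 1.08% of the TPM of the 3 Vav genes. Of the routes to Ras, Rasgrp1, which is activated by diacylglycerol, was at 76.8 ± 12.0 TPM, against 9.87 ± 0.687 TPM for Sos1 and 13.9 ± 1.44 TPM for Sos2.

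Because several of these relatives mark B cells and myeloid cells, markers of those cells were read in the same libraries. Of 8 B cell markers 1, Cd79b, reached 1 TPM in every library, and the summed TPM of the list was 5.98 to 7.83. Of 10 myeloid markers 1, Adgre1, reached 1 TPM, the sum was 1.75 to 3.52 TPM, and S100a8 and Spi1 had no count. The NK cell list had 1 of 6, Eomes, with a sum of 1.58 to 2.73 TPM and no count of Ncr1 and Klra8, and the mast cell and platelet list 1 of 7, Kit, with a sum of 7.20 to 9.49 TPM and no count of Cpa3, Mcpt4, Pf4 and Ppbp. In bulk RNA, fewer cells of a type and less RNA per cell cannot be told apart. The part of other cells in the low levels of Lyn, Lat2, Blnk and Syk was not tested.

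Plcg1 (ENSMUSG00000016933.17, chromosome 2, 160731300 to 160775760, plus strand), which cleaves the membrane lipid PIP2, measured 178, 188, 187 and 189.8 TPM. Replicate 1 was the lowest by a small margin. Plcg2, the form that predominates in B cells, was not near zero: it measured 16.7, 14.4, 17.6 and 15.2 TPM, with 657 to 2233 counts per library. Plcg1 exceeded it by 3.46 ± 0.15 on the log2(TPM + 1) scale (4 of 4 libraries), and held 92.1 ± 0.777% of their summed TPM. The difference was 4.35 in CPM and 4.06 with the longest transcript. The diacylglycerol kinases, which remove the second messenger that Plcg1 makes, were both abundant, with Dgkz at 357 ± 10.9 TPM and Dgka at 207 ± 18.0 TPM. Dgkz exceeded Plcg1 in every library, by 0.94 ± 0.07 (log2) in TPM and by 0.61 in CPM. This pair was chosen after its values were seen.

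Prkcq (ENSMUSG00000026778.13, chromosome 2, 11172108 to 11301222, plus strand) measured 31.3, 41.0, 38.7 and 39.1 TPM. Replicate 1 was the lowest, and the other libraries were close together. Prkcq is described as the protein kinase C of the T cell synapse, yet it held 7.95 ± 0.463% of the summed TPM of the 9 protein kinase C genes (471 ± 34.1). Prkch, which encodes PKC-eta and is also a T cell isoform, held 47.5 ± 1.31% and measured 202, 251, 229 and 215 TPM, above Prkcq in every library. Prkcd and Prkca were at 85.5 ± 2.91 and 83.6 ± 6.45 TPM. Prkch exceeded Prkcq by 2.55 ± 0.10 on the log2(TPM + 1) scale in 4 of 4 libraries, by 1.92 without length and by 2.04 with the length of the longest transcript, a pair picked out after its values were seen and not tested. Prkcq exceeded Prkcb, the form that acts below the B cell receptor, by 1.84 ± 0.14 (4 of 4 libraries), with Prkcb at 7.11, 10.4, 10.4 and 11.6 TPM. Of 18 genes of the phospholipase C and diacylglycerol list, 17 were expressed in every library.

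Malt1 (ENSMUSG00000032688.7, chromosome 18, 65430963 to 65478823, plus strand), the paracaspase that cleaves inhibitors of NF-kappaB signalling, measured 119.6, 157, 123 and 134 TPM. It was highest in replicate 2, and its level of 134 ± 17.0 TPM became 126 ± 7.55 TPM (n = 3) without that library. Bcl10, an adaptor that binds Malt1, measured 37.3, 39.0, 33.6 and 38.0 TPM, below Malt1 in every library. On the log2(TPM + 1) scale, Bcl10 minus Malt1 was -1.82 ± 0.14, below 0 in 4 of 4 libraries. With the length of the longest annotated transcript, the difference was -0.56. That length was 6404 bp against 5073 bp of counted exons for Malt1, and 2368 against 4564 bp for Bcl10.

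In all, 17 of 19 genes of the Malt1 complex and of the steps to IKK were expressed, the exceptions being Card9 and Card14. The highest were Rbck1, the HOIL-1 subunit of the linear ubiquitin ligase, at 221 ± 11.7 TPM, Map3k7, the TAK1 kinase, at 136 ± 16.9 TPM, and Malt1. All 11 MALT1 substrate genes reached 1 TPM in every library, and their median was 37.0 TPM. Rbck1 led, followed by Zc3h12d at 75.8 ± 8.96 TPM and Relb at 75.1 ± 4.82 TPM, while the deubiquitinases Tnfaip3 and Cyld were at 48.6 ± 3.67 and 22.7 ± 2.89 TPM.

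Genes known as brakes on the pathway were read in the same way. Of 24 such genes 23 reached 1 TPM in every library, the exception being Spry2, at 0.859 to 2.15 TPM. The median of the list was 64.5 TPM, and the highest were Ptpn6, Csk and Dgkz. Map4k1, the HPK1 kinase that marks Lcp2 for degradation, was at 170.1 ± 5.53 TPM, and Rasal3, a Ras GTPase activator, at 239.8 ± 2.50 TPM. The ubiquitin ligases Cbl and Cblb were at 74.9 ± 4.81 and 33.2 ± 2.48 TPM. Over all 124 pathway genes, the 8 included, 110 were expressed in every library and the median was 44.2 TPM.

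The last question was whether any of the 8 genes varied between libraries more than genes of like abundance. When edgeR's fit was tested against its trended dispersion, 0 of 8 had an adjusted p under 0.05, and 0 of 8 had an unadjusted p under 0.05. With 4 libraries and differences of at most 1.31-fold between the highest and lowest TPM of a gene, this does not show that their levels were equally stable. Over all 13478 genes tested, 51 (0.378%) were called at the adjusted threshold and 5.97% passed the unadjusted one. The 51 calls became 15 with limma, 17 without replicate 1, 23 without replicate 3 and 33 without replicate 4. Among the 8 genes Malt1 had the lowest value (edgeR adjusted p = 0.982), and the other 7 shared an edgeR adjusted p of 0.9998. Of the 116 pathway genes tested, 0 were called and 6 (5.17%) passed an unadjusted p of 0.05: Cd3d, Fyb, Prkcb, Rasgrp1, Src and Themis. Without replicate 1, 2 of 117 pathway genes passed it. Over all genes, 668 of 14090 passed it there, against 805 of 13478 with every library. The lowest was Fyb, the adaptor ADAP that binds Lcp2, at 42.0, 62.3, 59.1 and 58.3 TPM (edgeR adjusted p = 0.321). No pathway gene was called by limma or with the DESeq2 dispersion trend either.

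The 8 genes ranged over a median of 0.19 (log2 CPM) between their highest and lowest library, against 0.31 for all genes tested, and their median coefficient of variation was 3.48%, against 9.03% for all genes expressed. The 8 genes are more abundant than most, and these medians are not matched for abundance. The summed TPM of the 8 genes was 2287, 2336, 2322 and 2347 in replicates 1 to 4. On the log2 CPM scale, Prkcq lay 0.22 and Fyn 0.14 below their own means in replicate 1, Malt1 lay 0.12 below its mean there and 0.20 above it in replicate 2, and Lat lay 0.11 above its mean in replicate 1. In replicate 4, 7 of the 8 deviations were above 0, each by at most 0.06, against 4, 3 and 6 in replicates 1, 2 and 3. In TPM, replicate 1 was the lowest library for 5 of the 8 genes and for 55 of the 110 expressed pathway genes, against 36.8% of all expressed genes. The part of the non-coding RNA in replicate 1 in these values was not tested.

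**Figure D2:**
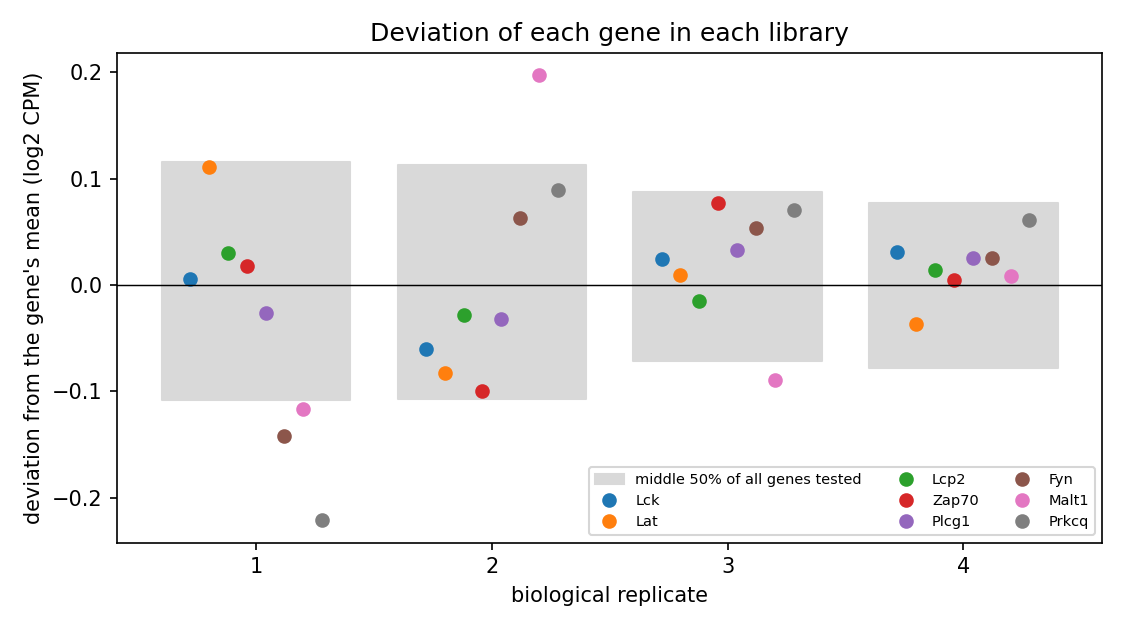
Deviation of log2 CPM from each gene's mean (y axis) in each of the 4 biological replicates (x axis), with 1 point per gene and a grey box for the middle 50% of all 13478 genes tested. Prkcq, Fyn and Malt1 lie under the box in replicate 1, Malt1 above it in replicate 2 and below it in replicate 3, and the other points lie within it.

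Genes outside chromosomes X and Y at a mean of 5 CPM or more were compared with the members, 9588 in all. For each member, the gene whose deviations over 4 libraries lay nearest was taken. For Lck it was Actn1, for Fyn Nckap1l, for Zap70 Fam114a2, for Lat Myd88, for Lcp2 Alas1, for Plcg1 Bri3bp, for Prkcq Trib2 and for Malt1 Gmfb, at root mean square differences of 0.00418 to 0.00922 (log2). Such nearness was common. Between 220 genes (Prkcq) and 1337 genes (Lcp2) lay within 0.05 of a member, so 4 libraries do not single out a partner.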

How the data were processed

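Total RNA sequencing libraries, 4 of 1 group, were analysed. Per the file headers, the authors deposited raw counts of read pairs per gene, from featureCounts 1.4.6-p4 run on pairs with both ends aligned by STAR, with the reverse strand setting (2) and GENCODE release M13; the labels name mm10. Reads that map to several places or genes were not counted by this command's defaults, and exons of Lck and Lat share 25 and 75 bases with microRNA genes, so a few reads may be lost there. The STAR version is not given in the labels or headers.

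Symbols came from GENCODE M21, which matched 50376 of 50600 identifiers. TPM used the deposited exon lengths. Excess variation was tested across genes in edgeR 4.0.16 (R 4.3.3) with filterByExpr (minimum count 10), TMM scaling, an intercept-only fit and trended dispersion. The p-values came from a one-sided chi-square test of the deviance of that fit, with Benjamini-Hochberg adjustment, called under 0.05. Simulated counts were drawn at the fitted trended dispersion, with known changes in 1 library of genes at 5 CPM or more. On these counts this test called 15% of genes changed 1.5-fold, 85% at 2-fold and 100% at 4-fold, with 4 false calls. The spread of genes around that trend was not simulated. The planned gene pairs were compared by exact sign-flip permutation (scipy 1.17.1). The libraries were not duplicates (chi-square per gene of 11.1 or more in every pair). Alternatives used limma 3.58.1, DESeq2 1.42.0, other scalings, filters, lengths, pseudocounts, thinned counts and each replicate left out.

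The genes and lists were chosen with earlier results of these data known. Named were the 8 genes, the pairs, the 3 highest genes of each list, those under 1 TPM in some library and the nearest genes; other genes were named for their role after their values were seen. One of the 9 pairs and a few list genes are not reported here. The promoter sequences and their comparison were added after the data were seen.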

Additional observations from a re-analysis of the deposited data

Results flagged for a closer look

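Of 42 values examined (the TPM of the 8 genes, of their paired genes and of the 3 highest genes of each list, and the 9 differences), 3 had 1 library distant from its group under Dixon's test at the 95% level, and chance alone picks out about 1 in 20. None was a value of the 8 genes. Syk was highest in replicate 1, at 0.406 TPM against 0.161 to 0.191 TPM in the others, on 18 to 55 counts per library. Ptpn6 was highest in replicate 4, at 479 TPM against 445 to 447 TPM. Dgkz was lowest in replicate 2, at 340.3 TPM against 361 to 363 TPM.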

How the results depend on the processing

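No setting called any of the 8 genes or any other pathway gene for excess variation, and their unadjusted counts under 0.05 ranged from 2 to 8 pathway genes. Over all genes, 51 calls became 15 with limma, and 17 to 56 with each replicate left out (17 without replicate 1, 23 without replicate 3, 33 without replicate 4). The 8 planned gene pairs reported kept their direction under every alternative, though not their size (Bcl10 minus Malt1 was -0.556 with the longest transcript). As none of these exact tests can pass 0.05, this speaks of direction only. Between 101 and 114 of 124 pathway genes were expressed under the other thresholds and with each replicate left out. In CPM, Lck was at 704, Fyn at 199.7, Zap70 at 236, Lat at 453, Lcp2 at 353, Plcg1 at 451, Prkcq at 82.0 and Malt1 at 209. TPM over protein-coding genes alone raised Lck to 826, Zap70 to 271, Lat to 563, Lcp2 to 272 and Plcg1 to 197. Of neighbours in the order, Zap70 minus Plcg1 was -0.94 and Fyn minus Malt1 -0.063 in CPM, and Lcp2 minus Zap70 was -0.115 with the longest transcript and -0.016 to 0.039 with each replicate left out, the former without replicate 2; the settings of length for neighbours were chosen after seeing the data. No paired analysis was possible because there is 1 group. With 4 libraries the depth was not what limited these genes, whereas Syk, Blnk, Lat2 and Clnk rest on few counts.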
